A study of Mus musculus with 4 samples.

Results

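The HSP70 chaperones were followed through 10 genes, picked by name from the 23980 genes of the deposited table, all of which were found there. Hspa2, Hspa1l and Hspa4l are the testis members, known for high or restricted expression in germ cells. Hspa4, Hspa5, Hspa8, Hspa9, Hspa14, Hspa1a and Hspa1b are the 7 general members, which most tissues use. The split into 3 and 7 was given with the gene names, which were chosen with earlier results of these data known.

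HSP70 proteins bind and release stretches of other proteins that are not yet folded, in a cycle of ATP binding and hydrolysis. J-domain proteins of the DNAJ families deliver the clients and start the hydrolysis, and nucleotide exchange factors reset the chaperone. In the testis, HSPA2 is made in meiotic germ cells, lies along the synaptonemal complex that joins paired chromosomes, and is needed for spermatocytes to leave meiotic prophase.

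PolyA RNA was sequenced from leptotene and zygotene (L/Z) spermatocytes, the germ cells of early meiotic prophase, which had been sorted by FACS from mice aged 3 to 4 weeks. All animals were F1 hybrids of the strains C57BL6/J and MSM/Ms. The 4 libraries, 1 of each genotype, were Dnmt3L_Het (heterozygous), Pld6 WT, Pld6 KO and Dnmt3L KO, and the first 2 served as the controls of both mutants. The labels do not say whether a library came from 1 animal or a pool. Pld6 encodes a mitochondrial protein that piRNA production needs, and Dnmt3l encodes a cofactor of de novo DNA methylation. By the study's own account germ cells die at the end of zygotene in both mutants, whereas control testes of this age also hold later germ cells.

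The libraries held between 30439943 and 63875934 fragments in genes. Pld6 was at 17.2 and 19.5 FPKM (fragments scaled to gene length and library depth) in Dnmt3L_Het and Pld6 WT, 0.334 in Pld6 KO and 8.55 in Dnmt3L KO, whereas Dnmt3l was at 0 fragments in Dnmt3L KO against 20 to 101 elsewhere. All 17 measured L/Z markers had a mean FPKM of at least 1. The controls were unlike each other. Spermatid markers summed to 7334 FPKM in Dnmt3L_Het, 328 in Pld6 WT, 15.1 in Pld6 KO and 32.5 in Dnmt3L KO. Sertoli cell markers summed to 8030, 309, 694 and 10258 FPKM in the same order.

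Promoter stretches of 4 members are shown because the inducible members Hspa1a and Hspa1b and the testis members Hspa2 and Hspa1l lay on opposite sides of the controls in RNA level. Hspa1a, Hspa1b and Hspa1l lie side by side on chromosome 17, and the starts of Hspa1a and Hspa1l, which are read away from each other, lie 547 bases apart. The heat shock element, the site of the heat shock factors, was searched as 2 units, GAANNTTC or TTCNNGAA, and as 3 such units in a row. The core of the cAMP response element was searched as TGACG. Both strands were read, in windows from 250 bases before to 50 after the start of transcription in RefSeq (GRCm38.p6). The 150 bases just before the start used for each window are given 5′ to 3′ along the gene. They lie at chr17:34972157-34972306 (minus strand) for Hspa1a, chr17:34959239-34959388 (minus) for Hspa1b, chr17:34972553-34972702 (plus) for Hspa1l and chr12:76404220-76404369 (plus) for Hspa2. The Hspa2 stretch lies inside the annotated span of its gene, which begins at base 76403812. Those of Hspa1a, Hspa1b and Hspa1l lie just outside the spans of their genes. Capitals mark the 2-unit heat shock element in the first 2 and the TGACG core in the last 2. In Hspa2 the core is read on the other strand as CGTCA.
Hspa1a: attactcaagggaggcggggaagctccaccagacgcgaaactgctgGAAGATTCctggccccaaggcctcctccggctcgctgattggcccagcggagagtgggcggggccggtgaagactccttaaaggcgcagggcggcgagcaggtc
Hspa1b: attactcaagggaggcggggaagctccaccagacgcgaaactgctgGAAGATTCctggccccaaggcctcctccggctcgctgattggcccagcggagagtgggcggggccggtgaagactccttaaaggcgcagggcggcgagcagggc
Hspa1l: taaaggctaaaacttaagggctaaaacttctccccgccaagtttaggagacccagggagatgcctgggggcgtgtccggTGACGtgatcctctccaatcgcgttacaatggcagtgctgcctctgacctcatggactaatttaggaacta
Hspa2: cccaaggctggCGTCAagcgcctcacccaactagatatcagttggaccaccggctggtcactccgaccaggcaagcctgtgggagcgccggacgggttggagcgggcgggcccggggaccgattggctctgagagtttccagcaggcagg
Among the 8 members with a window, Hspa1a and Hspa1b alone held the 2-unit heat shock element, at -104 to -97 from the start (GAAGATTC). This motif was in 15.1% of 32851 mouse promoters. The form of 3 units in a row was in none of the 8 windows and in 0.603% of promoters. The Hspa1a and Hspa1b windows were the same at 296 of 300 bases, 98.7%. The TGACG core was in the windows of Hspa2, Hspa1l, Hspa4l, Hspa4, Hspa5 and Hspa14, so it did not set the testis members apart, and 20.8% of all promoters held it. None of the 8 windows held the whole cAMP response element TGACGTCA (1.79% of promoters) or TATAAA (13.6%). CCAAT was found in those of Hspa2, Hspa1l, Hspa5, Hspa14, Hspa1a and Hspa1b and in 37.4% of all promoters. These matches are letters in a window and do not show that a factor binds there.

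FPKM is scaled to gene length, so levels can be set side by side between members. Hspa8, the constitutive cytosolic HSC70, and Hspa5, the endoplasmic reticulum member also called BiP, led the family in every library. On the FPKM scale the mean of the 2 controls was 1074 ± 113 (SD, n = 2) for Hspa8 and 1000.1 ± 302 for Hspa5. Hspa9, the mitochondrial member, came next with 133 ± 0.872 FPKM, level with Hspa2 at 133 ± 26.2. Hspa4l stood at 97.6 ± 2.92 and Hspa4 at 94.5 ± 1.41 FPKM, and their order turned between the controls. Both encode HSP110-type proteins, which act as exchange factors for other HSP70 chaperones. Hspa14, whose protein works at the ribosome, followed with 72.6 ± 5.17 FPKM. Hspa1l (18.4 ± 20.1), Hspa1b (14.8 ± 6.02) and Hspa1a (14.7 ± 7.09) closed the order and did not differ beyond their spread.

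**Figure D1:**
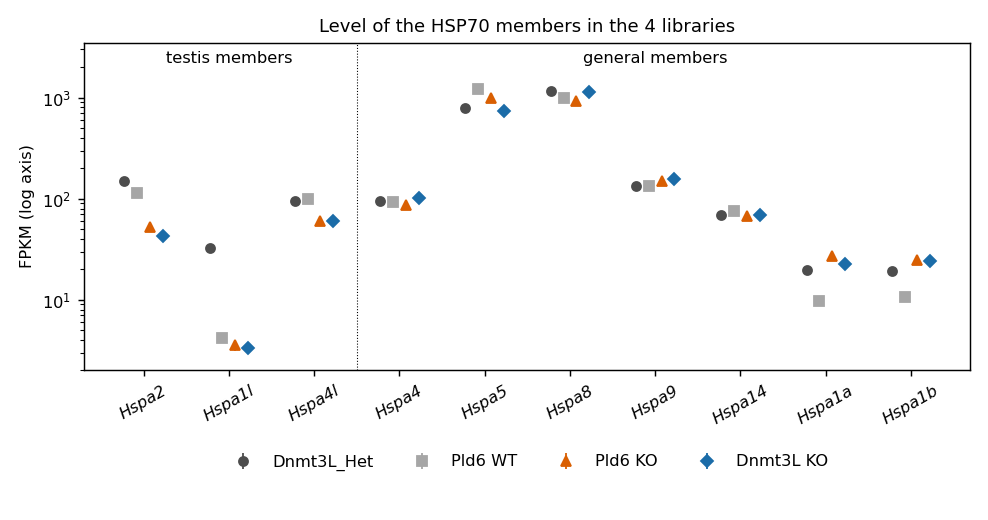
FPKM of the 10 HSP70 members on a log axis, with 1 point for each of the 4 libraries and bars for the exact Poisson 95% interval of the fragment count, most of them hidden by the points. Hspa2 and Hspa4l sit lower in both KO libraries than in both controls, Hspa1l is high in Dnmt3L_Het alone, and Hspa1a and Hspa1b are lowest in Pld6 WT.

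Hspa2 was the member that stood farthest from both controls in the mutants. It measured 151 FPKM in Dnmt3L_Het, 114 in Pld6 WT, 52.5 in Pld6 KO and 43.2 in Dnmt3L KO. Both mutants were low, both controls were high, and the counting intervals of the 4 libraries did not touch. Between mutants and controls the nearest bounds were 54.1 FPKM, the upper one of Pld6 KO, and 112 FPKM, the lower one of Pld6 WT. These values rest on 22848, 10862, 3904 and 4808 fragments. In Pld6 KO the log2 ratio of FPKM + 1 to the control mean was -1.33, in Dnmt3L KO it was -1.60, and in FPKM the mutants held 39.5% and 32.5% of the control mean. Hspa2 held rank 3 in the family in Dnmt3L_Het, rank 4 in Pld6 WT and rank 7 in both mutants.

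The call rule asked for an FPKM + 1 beyond both controls by more than 2-fold, which describes single libraries and is not a test. By this rule 1 of 10 members, Hspa2, was lower in Pld6 KO, where 5.41% of all genes in the table were, and none was higher, against 1.04% of all genes. In Dnmt3L KO the count was again 1 of 10, again Hspa2, against 5.78% of all genes, with none higher against 2.14%. Restricted to the 14416 genes with a mean FPKM of at least 1, the shares lower were 8.57% and 9.16%. One gene of 10 is too few to set against such a share.

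The edgeR quasi-likelihood test, in which 1 degree of freedom between the 2 unlike controls carried the spread, called 0 of 18657 genes in either mutant. For Hspa2 it gave a log2 fold change of -1.38 (SE 0.619, unadjusted p = 0.0673, adjusted p = 0.707) in Pld6 KO. In Dnmt3L KO the same test gave -1.62 (SE 0.628, unadjusted p = 0.0413, adjusted p = 0.528). Over all genes, unadjusted p was under 0.05 for 102 higher and 1383 lower genes in Pld6 KO and for 203 and 1440 in Dnmt3L KO. DESeq2 called 15 genes higher and 957 lower in Pld6 KO and 17 and 919 in Dnmt3L KO, with no HSP70 member among them. The test thus did not separate the difference in Hspa2 from the spread between those 2 controls. A fit added after the data were seen took both mutants as 1 group and the line, Pld6 or Dnmt3L, as a block, which again left 1 residual degree of freedom and assumes 1 common change in both mutants. In this fit Hspa2 had a log2 fold change of -1.49 (SE 0.276) and an edgeR adjusted p = 0.0208, lower than its own line's control in 2 of 2 lines, and it was the 1 of 10 members that passed, where 5.98% of 17686 genes passed as lower and 0.741% as higher. Without the block the adjusted p for both mutants together was 0.166, so the call for Hspa2 depends on pairing by line.

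Hspa4l was lower in both mutants by a similar amount. Its FPKM was 95.5 in Dnmt3L_Het, 99.7 in Pld6 WT, 60.1 in Pld6 KO and 59.8 in Dnmt3L KO, so that the controls lay close together and the mutants lay close together below them. The log2 changes of -0.69 (Pld6 KO) and -0.70 (Dnmt3L KO) were short of 2-fold, with adjusted p = 0.971 and 0.886 by edgeR, and 0.160 for both mutants together with the line as a block. Its paralog Hspa4 showed no such step. Hspa4 stood at 95.5, 93.5, 86.6 and 101 FPKM in the same order, with log2 changes of -0.13 and 0.09. The FPKM of Hspa4l relative to that of Hspa4 was thus 0.9998 in Dnmt3L_Het, 1.07 in Pld6 WT, 0.693 in Pld6 KO and 0.595 in Dnmt3L KO.

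Hspa1l, a testis gene whose protein appears mainly in spermatids, followed a different course. Its FPKM was 32.7 in Dnmt3L_Het, 4.22 in Pld6 WT, 3.53 in Pld6 KO and 3.30 in Dnmt3L KO. One library was high and the other 3 were low, so the log2 changes of -2.10 and -2.18 from the control mean come from Dnmt3L_Het. Against Pld6 WT alone they were -0.20 and -0.28. The counting interval of Pld6 KO, 3.11 to 4.00 FPKM, overlapped that of Pld6 WT, 3.80 to 4.66, whereas that of Dnmt3L KO, 2.96 to 3.66, lay below it. On the scale of FPKM + 1, Hspa1l was the 1 of 10 members more than 2-fold apart between the controls, where 14.8% of all genes were. In plain FPKM it was 7.75-fold higher in Dnmt3L_Het, and Hspa1a was 2.04-fold higher there. By edgeR the adjusted p of Hspa1l was 0.861 and 0.761 in the 2 mutants.

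**Figure D2:**
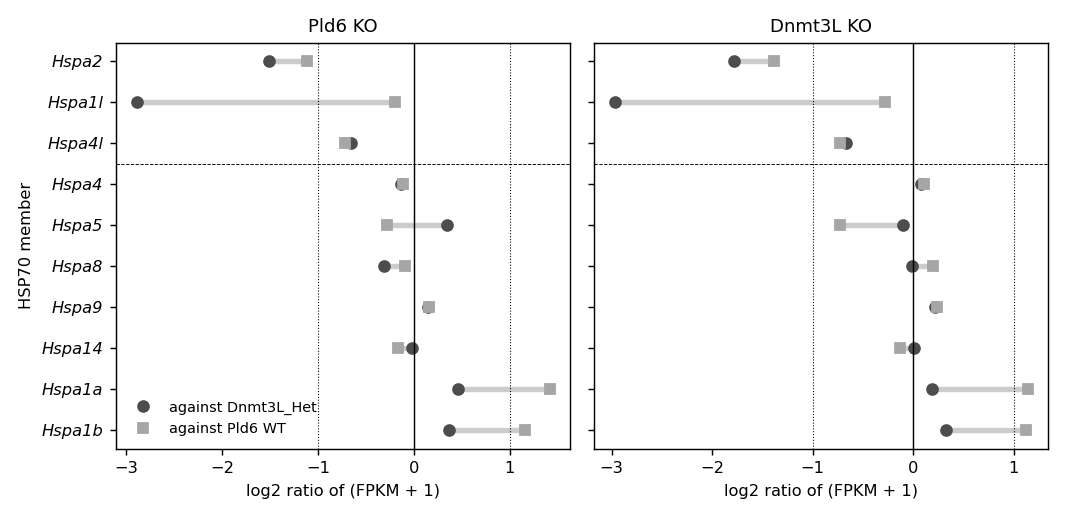
Log2 ratio of FPKM + 1 in Pld6 KO (left) and Dnmt3L KO (right) to each control, circles for Dnmt3L_Het and squares for Pld6 WT, joined by a grey bar, with dotted lines at 2-fold. Both marks lie beyond the dotted line for Hspa2 alone, while for Hspa1l the bar runs from -0.20 to -2.89 in Pld6 KO.

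Markers of later germ cells were low in the mutants beside these genes. Of 15 measured pachytene markers, 12 were called lower in each mutant. Among genes with a mean FPKM of at least 1, 8.57% (Pld6 KO) and 9.16% (Dnmt3L KO) were called lower. The pachytene list summed to 1657 FPKM in Dnmt3L_Het, 1159 in Pld6 WT, 259 in Pld6 KO and 156 in Dnmt3L KO. Each of 16 spermatid markers was below both controls in both mutants, where 17.9% of all genes were, silent ones included. At 0 FPKM were 3 of the 16 markers in Pld6 KO, 4 in Dnmt3L KO and none in a control. Prm1, a sperm protamine, was at 2372, 16.3, 2.87 and 1.81 FPKM in the same order. The sums of the L/Z markers were 2413, 3822, 2274 and 1356 FPKM, lowest in Dnmt3L KO. The part of these cells in the levels of Hspa2, Hspa4l and Hspa1l was not tested, and in such bulk samples fewer cells of a type and less RNA per cell cannot be told apart.

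Hspa1a and Hspa1b, the stress-inducible pair, were the members that stood higher. Hspa1a was at 19.7 FPKM in Dnmt3L_Het, 9.67 in Pld6 WT, 27.4 in Pld6 KO and 22.5 in Dnmt3L KO. Hspa1b was at 19.1, 10.6, 24.96 and 24.2 FPKM in the same order. In both genes the Pld6 WT library was low and both mutants were above both controls, yet by a margin over Dnmt3L_Het that was smaller than the gap between the controls. Of the 50-base stretches of their transcripts (GENCODE M21), 60.3% for Hspa1a and 62.3% for Hspa1b also occur in another family member, mostly in each other, so reads could have been split between them, and their sum is the safer quantity. The sum was 38.8 FPKM in Dnmt3L_Het, 20.3 in Pld6 WT, 52.4 in Pld6 KO and 46.7 in Dnmt3L KO. It was 1.35-fold and 1.20-fold above Dnmt3L_Het and 2.59-fold and 2.31-fold above Pld6 WT in the 2 mutants. The log2 change of Hspa1a was 0.86 and 0.58 and that of Hspa1b 0.71 and 0.67, with edgeR adjusted p = 0.923 as the lowest of the 4.

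The immediate early genes, a list of 14 transcription factors and signal regulators that cells switch on within minutes of a disturbance, had Pld6 WT as their lowest library in 13 of 14 cases, Jund (75.5, 80.0, 108 and 94.1 FPKM) being the exception. All 14 were above Pld6 WT in both mutants, and 12 of them lay above both controls in both mutants. Of all genes, silent ones included, 11.5% did. The list's median log2 change was 1.10 and 1.23 in the 2 mutants. Called higher were 2 of 14 in Pld6 KO, against 1.51% of genes with a mean FPKM of at least 1, and 5 of 14 in Dnmt3L KO, against 3.29%. Between the controls, 7 of 14 were more than 2-fold higher in Dnmt3L_Het, where 23.7% of those genes were that far apart in either direction. Fos was at 104 FPKM in Dnmt3L_Het, 40.6 in Pld6 WT, 182 in Pld6 KO and 181 in Dnmt3L KO. Atf3 and Fosb had the largest mean changes of the list, Atf3 with 5.38, 4.12, 12.2 and 24.4 FPKM and Fosb with 25.3, 6.55, 43.7 and 66.0. Markers of somatic testis cells were likewise lowest in Pld6 WT when summed. Leydig cell markers summed to 463, 82.9, 290 and 446 FPKM, macrophage markers to 97.5, 30.5, 70.6 and 178, and peritubular and vascular markers to 617, 147, 628 and 337, in the order Dnmt3L_Het, Pld6 WT, Pld6 KO and Dnmt3L KO. In Pld6 KO, 3 of 11 peritubular and vascular markers (Pecam1, Cdh5 and Vwf) were called higher, against 1.51% of genes with a mean FPKM of at least 1. No Sertoli, Leydig or macrophage marker was. In Dnmt3L KO, 1 of 16 Sertoli (Fshr), 2 of 9 Leydig (Star and Lhcgr) and 2 of 10 macrophage markers (Csf1r and Lyz2) were, against 3.29%. No peritubular or vascular marker was. None of these lists had a marker called lower in either mutant. Erythroid markers differed, with sums of 498, 20.8, 13.1 and 104 FPKM in the same order, lowest in Pld6 KO. Of 7 measured, 1 (Hba-a2) was called lower in each mutant, against 5.41% and 5.78% of all genes. The part of these cells, and of what moved the immediate early genes, in the levels of Hspa1a and Hspa1b was not tested.

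**Figure D3:**
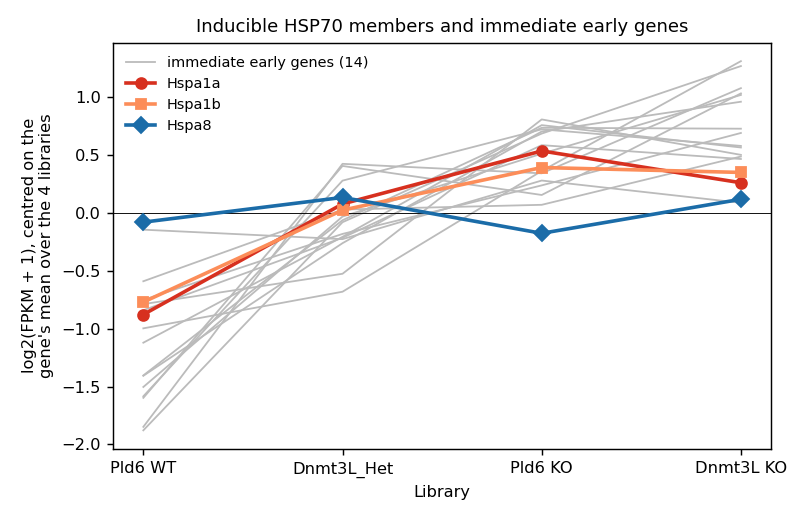
Level of Hspa1a, Hspa1b, Hspa8 and the 14 immediate early genes (grey) in the 4 libraries, as log2(FPKM + 1) centred on each gene's mean, with lines joining the points of 1 gene. Hspa1a, Hspa1b and 13 of the 14 immediate early genes are lowest in Pld6 WT, and Hspa1a and Hspa1b lie above their mean in both KO libraries, whereas Hspa8 stays near its mean.

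The other 5 general members moved little. Hspa8 was at 1154 FPKM in Dnmt3L_Het, 995 in Pld6 WT, 931 in Pld6 KO and 1141 in Dnmt3L KO, with log2 changes of -0.21 and 0.09. Hspa5 was at 786, 1214, 1000.2 and 735 FPKM in the same order, and its controls were farther apart than either mutant was from their mean. Its log2 changes were 0.00 in Pld6 KO and -0.44 in Dnmt3L KO. Hspa9 was above both controls in both mutants, at 134, 133, 148 and 156 FPKM, but by log2 changes of only 0.15 and 0.23. Hspa14 was at 69.0, 76.3, 67.9 and 69.4 FPKM, with log2 changes of -0.10 and -0.06. The lowest of their edgeR values was adjusted p = 0.941, for Hspa5 in Dnmt3L KO. Counts of some members are uncertain in themselves. Of the 50-base stretches of Hspa8, 73.2% also occur in transcripts of other genes, processed pseudogenes led by Gm15459 among them. Hspa14 shared 15.6% with Gm45902, Hspa1l 9.57% with Hspa1a or Hspa1b and Hspa9 4.10% with Hspa9-ps1, whereas Hspa2, Hspa4 and Hspa5 shared none. The annotated span of Hspa2 overlaps the non-coding gene 4930426I24Rik over 183 bases and that of Hspa5 overlaps Rabepk over 1921 bases, and whether the counting used strand is not given in the sources used here.

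Set against each other, the testis members were lower and the general members were spread around no change. The 3 testis members were below both controls in both mutants, as 17.9% of all genes were, silent ones included. None of the 7 general members was. Above both controls in both mutants were Hspa9, Hspa1a and Hspa1b, 3 of 10 members, where 11.5% of all genes were, silent ones included. The testis members had a median log2 change of -1.33 (range -2.10 to -0.69) in Pld6 KO and of -1.60 (-2.18 to -0.70) in Dnmt3L KO. That of the general members was 0.00 (-0.21 to 0.86) and 0.09 (-0.44 to 0.67), close to the -0.05 and -0.02 of all genes with a mean FPKM of at least 1. The ranges of the 2 sets did not overlap in either mutant. Against Pld6 WT alone, the Pld6 KO testis median was -0.72 and the ranges met, with Hspa1l at -0.20 and Hspa5 at -0.28, while in Dnmt3L KO over Dnmt3L_Het the medians were -1.79 and 0.07 and the ranges stayed apart. Dnmt3L KO over Pld6 WT gave a testis median of -0.73 and ranges that met, with Hspa1l at -0.28 and Hspa5 at -0.72. As the members are not replicates and were picked by name, no test was made of the difference between the sets. Both mutants were compared with the same 2 controls, so the likeness of their values is not a second measurement of the step.

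The make-up of the family shifted with these levels. The testis members supplied 10.9% of the summed FPKM of the 10 genes in Dnmt3L_Het, 7.94% in Pld6 WT, 4.83% in Pld6 KO and 4.51% in Dnmt3L KO. Hspa2 alone supplied 5.92%, 4.16%, 2.18% and 1.83%. Hspa5 and Hspa8 together held 75.9%, 80.3%, 80.4% and 79.7%, with the larger share going to Hspa5 in Pld6 WT and Pld6 KO and to Hspa8 in the other 2. The summed FPKM itself was 2557, 2750, 2402 and 2355, so each mutant lay 6.06% to 14.4% below a control for the family as a whole. Relative to Hspa8, Hspa2 was at 0.131 in Dnmt3L_Het, 0.115 in Pld6 WT, 0.0564 in Pld6 KO and 0.0378 in Dnmt3L KO on the FPKM scale.

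**Figure D4:**
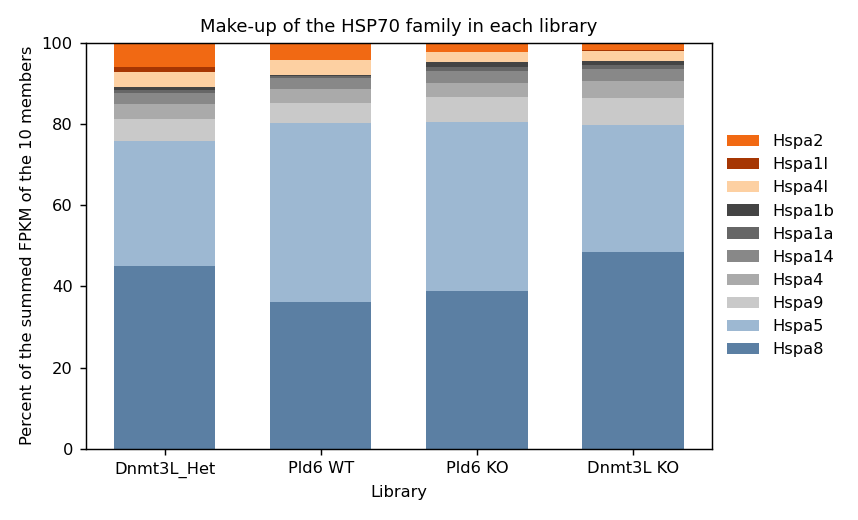
Percent of the summed FPKM of the 10 HSP70 members that each gene supplied in each library, stacked to 100 percent, with testis members in orange at the top. The orange part is 10.9% and 7.94% in the controls and 4.83% and 4.51% in the mutants, and Hspa5 with Hspa8 (blue) fills most of every bar.

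The genes whose pattern over the 4 libraries was nearest to that of each testis member were different sets, by the distance between log2(FPKM + 1) profiles centred on their means. For Hspa2 they were Asb4, Stambpl1, Gm3404, E230008N13Rik and Wdr78, at distances of 0.0542 to 0.126. All of them were far below Hspa2 in level. Asb4 was at 2.28 FPKM in Dnmt3L_Het, 1.58 in Pld6 WT, 0.184 in Pld6 KO and 0 in Dnmt3L KO. Wdr78, the highest, was at 9.39, 7.73, 2.97 and 2.07 FPKM. The added 1 understates the change of such low genes, so their nearness holds on this scale only. For Hspa1l they were 1700012L04Rik, Tmem239, 1700019O17Rik, Gm614 and Gm14484 (0.101 to 0.175), and Tmem239, for example, was at 7.41 FPKM in Dnmt3L_Het and 0.210 in Pld6 WT. For Hspa4l they were Wdr12, Sugp2, Zswim7, Rph3al and Rnf138 (0.0277 to 0.0826), and Wdr12 was at 30.3, 31.9, 18.9 and 18.4 FPKM. Among the 14415 genes compared, Hspa4l ranked 757 and Hspa1l ranked 5694 in likeness to Hspa2, while Hspa2 ranked 508 in likeness to Hspa1l, at the same distance of 1.63.

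The partners of HSP70 were read against all genes with a mean FPKM of at least 1, of which 8.57% were called lower and 1.51% higher in Pld6 KO, and 9.16% lower and 3.29% higher in Dnmt3L KO. The J-domain partners came in 2 lists. Of 17 DNAJA and DNAJB genes, 5 were called lower in Pld6 KO (Dnajb2, Dnajb3, Dnajb8, Dnajb13 and Dnajb14) and 4 in Dnmt3L KO (Dnajb3, Dnajb7, Dnajb8 and Dnajb13), with none higher. The list's median log2 change was -0.57 and -0.63. Dnajb13, which belongs to the radial spokes of the sperm tail, was at 38.2 FPKM in Dnmt3L_Het, 17.7 in Pld6 WT, 0.235 in Pld6 KO and 2.89 in Dnmt3L KO. Dnajb8 was at 33.6, 2.59, 0.0802 and 0.349 FPKM, with the Pld6 KO value resting on 2 fragments. The 2 most abundant, Dnajb6 (176, 176, 118 and 120 FPKM) and Dnajb11 of the endoplasmic reticulum (137, 235, 183 and 105), were not called.

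Of 30 DNAJC genes, 2 were called lower in each mutant, Dnajc5b and Dnajc5g, with none higher, and the median was -0.19 and -0.06. Dnajc5b was at 38.6 and 8.59 FPKM in the controls and had 0 fragments in both mutants. With 3 fragments per library as the floor, it was at least 67.2-fold lower in Pld6 KO and at least 101-fold lower in Dnmt3L KO than in Pld6 WT. Dnajc5g was at 23.6, 17.0, 3.78 and 3.91 FPKM. The abundant Dnajc15 (248.8, 131, 73.4 and 138) and Dnajc19 (143, 132, 94.7 and 80.5), both of the inner mitochondrial membrane, were not called.

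Among 10 nucleotide exchange factors, 1 was called lower in Pld6 KO, Bag5, and none in Dnmt3L KO, with medians of -0.41 and -0.07. Bag5 was at 63.5 FPKM in Dnmt3L_Het, 29.8 in Pld6 WT, 8.07 in Pld6 KO and 17.9 in Dnmt3L KO. Bag1 and Bag6, which with its partner proteins is known to keep HSPA2 stable in germ cells, were the most abundant. Bag6 was at 112, 99.2, 90.8 and 109 FPKM and Bag1 at 193, 150, 131 and 121. Sil1, the exchange factor of the endoplasmic reticulum, was at 54.9, 45.5, 36.9 and 32.9 FPKM. Of the 16 HSP90 chaperones and their links to HSP70, none was called in either direction in either mutant, and the medians were -0.03 and 0.02. Hsp90aa1 (750, 879, 687 and 593 FPKM) and Hsp90b1 (722, 694, 739 and 735) stood near Hspa5 and Hspa8 in level. Ptges3 (206, 221, 146 and 138) and Fkbp5 (36.8, 29.1, 36.0 and 60.5) had the largest mean changes of this list.

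Of 5 other HSP70 relatives none was called, and the medians were 0.36 and -0.01. Hyou1, the large HSP70 relative of the endoplasmic reticulum, was at 83.5, 125, 194 and 102 FPKM, with log2 changes of 0.89 in Pld6 KO and -0.04 in Dnmt3L KO. Hsph1 was at 23.3, 27.1, 27.7 and 31.9 FPKM and Hspa12a at 2.12, 1.08, 3.04 and 3.45. Among 14 endoplasmic reticulum stress genes, Sdf2l1 was called lower in Dnmt3L KO and no other in either mutant, with medians of 0.25 and -0.05. Eif2ak3, the sensor PERK, was at 5.06, 8.08, 15.3 and 7.34 FPKM. Calr was at 801, 740, 701 and 661 FPKM and Pdia6 at 286, 283, 337 and 217. Hspa5, a target of that stress response, was 1.27-fold above Dnmt3L_Het and 0.824 times the level of Pld6 WT in Pld6 KO, and below both controls in Dnmt3L KO.

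The remaining chaperone lists were the heat shock factors, small heat shock proteins and chaperonins. Of the 7 genes in the heat shock factor list, Hsf5 and Hsfy2 were called lower in both mutants. Hsf2bp, which encodes a protein that binds HSF2 and is not itself a heat shock factor, was called lower in Dnmt3L KO. The list medians were -0.12 and -0.67. Hsf5, which acts in spermatocytes, was at 14.4 and 14.1 FPKM in the controls, 3.41 in Pld6 KO and 4.37 in Dnmt3L KO. Hsfy2 was at 6.59 and 6.45 FPKM in the controls and 0 in both mutants, at least 81.8-fold and 122-fold lower than in Pld6 WT. Hsf1, the main regulator of inducible HSP70 genes, was at 22.1, 30.6, 37.3 and 27.5 FPKM and Hsf2 at 17.5, 29.4, 24.8 and 22.5, neither of them called.

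Of 11 small heat shock genes, Hspb9 and Odf1 were called lower in both mutants, and the list medians were -0.40 and -0.32. Hspb9 was at 240 FPKM in Dnmt3L_Het, 91.4 in Pld6 WT, 0.0602 (1 fragment) in Pld6 KO and 1.81 in Dnmt3L KO. Odf1, a protein of the outer dense fibres of the sperm tail, was at 93.5, 18.3, 1.36 and 0.537 FPKM. Of 11 chaperonin genes, Cct6b, the testis form of a subunit, was called lower in both (30.6, 18.8, 0.374 and 1.08 FPKM). Tcp1, the subunit with the next largest change, was at 328, 307, 183 and 170 FPKM, and the chaperonin medians were -0.14 and -0.37. Hspb1, an abundant small heat shock gene, was at 130, 7.71, 45.2 and 195 FPKM, high in the same 2 libraries as the Sertoli cell markers. Hspb11 (158, 218, 142 and 93.8), Hspe1 (293, 329, 330 and 287) and Cct3 (308, 331, 309 and 241) were the other abundant genes of these lists.

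Some genes tied to HSPA2 through the synaptonemal complex and the end of prophase were low. Of 14 such genes, 7 lay below both controls in both mutants, where 17.9% of all genes did, silent ones included. Ccna1, Syce3 and Shcbp1l were called lower in Pld6 KO and these with Syce1 in Dnmt3L KO, and the medians were -0.49 and -1.12. Shcbp1l, whose protein binds HSPA2 in the testis, was at 42.7, 34.1, 16.2 and 8.31 FPKM. Ccna1, the meiotic cyclin A, was at 24.98, 14.3, 1.503 and 0.510 FPKM. Sycp3, a core protein of the chromosome axis, was at 559, 782, 431 and 285 FPKM, lowest in Dnmt3L KO like Hspa2. Syce2, another part of the complex, was at 284, 465, 262 and 163 FPKM.

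**Figure D5:**
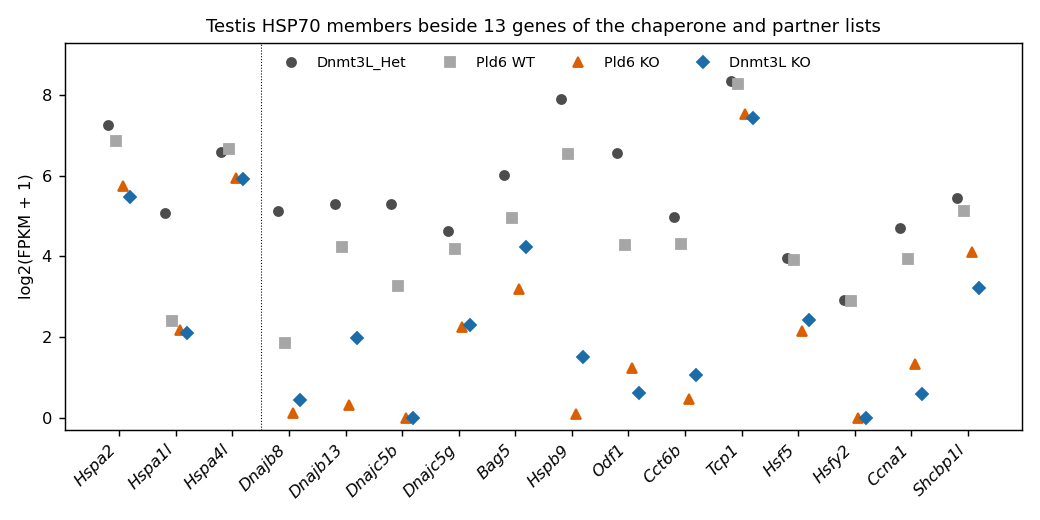
log2(FPKM + 1) of the 3 testis HSP70 members (left of the dotted line) and of 13 genes of the chaperone and partner lists, 1 point for each library. The 13 were picked among genes with large changes that were lower in both mutants. Genes of these lists that rose in a mutant, such as Eif2ak3, Hyou1 and Fkbp5, are not shown. By this choice the triangles (Pld6 KO) and diamonds (Dnmt3L KO) lie below both controls throughout, from the small step of Tcp1 to Dnajc5b and Hsfy2 at 0.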

How the data were processed

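Stranded polyA libraries of sorted L/Z spermatocytes were read as 50 bp single ends. Per the labels, TopHat and Cuffdiff were used with mm10, and versions are not given in the sources used here. The authors deposited 1 table with an estimated count of fragments and an FPKM for each gene and library. In each library 97.3% to 97.4% of the deposited estimated counts were whole numbers, with no tolerance allowed. The authors' tool scaled FPKM to gene length and library depth. It marked 31 values of 28 genes as failed, none in a gene of the lists used here.

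The 10 HSP70 members and all other lists were chosen with earlier results of these data known. Each mutant FPKM was set against both controls as log2(FPKM + 1), with 2-fold beyond both as the threshold for a call, which understates the change of low genes. Genes silent in every library cannot lie below or above both controls. Shares of all genes that do so are thus low beside lists of expressed genes. Estimated counts were rounded and tested with edgeR 4.0.16 in R 4.3.3 (TMM, filterByExpr, quasi-likelihood, Benjamini-Hochberg over all genes) on all 4 libraries in 3 groups, and with DESeq2 1.42.0 as an alternative. The fit was tested on simulated data in which all genes were given the same spread. At the spread estimated between the controls it missed the changed genes, whereas at a far smaller spread it found them. With controls as unlike as these, a missing call thus carries little weight. The labels do not say whether the controls were separate animals of 1 line. They carry different genotypes, so p-values of the fits in 3 groups measure only the spread between these 2 libraries. In the fits with both mutants as 1 group the spread also draws on the mutants. With the line as a block, it is how far the change differs between the 2 lines. Intervals are exact Poisson at 95% and, without molecular identifiers, cover counting error only. Read sharing counted 50-base words of the longest coding transcript found in transcripts of other genes (GENCODE M21). Promoters came from RefSeq (GRCm38.p6), which gave windows for 8 of the 10 members.

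Besides the members, the genes named were, for each chaperone or partner list, the 2 with the highest mean FPKM and the 2 with the largest mean change among genes with a mean FPKM of at least 1, and the 5 nearest in pattern to each testis member. Cell type markers are given as sums over their lists. Other genes named beside a count of 5 or fewer, and Prm1, were chosen after their values were seen. Python 3.11.15 with pandas 2.3.3, numpy 2.4.6, SciPy 1.17.1 and matplotlib 3.10.9 was used. Alternatives were a pseudocount of 0.1, a 3-fold threshold, each control left out, fragments scaled by TMM or by DESeq2 size factors, edgeR without a filter or with RLE scaling, and the family without Hspa1a and Hspa1b. A fit with the line as a block was added after the data were seen.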

Additional observations from a re-analysis of the deposited data

Results flagged for a closer look

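Some results differed in direction between the 2 lines when each mutant was set against the control of its own line. Hspa4 had a log2 ratio of -0.11 in Pld6 KO over Pld6 WT and 0.073 in Dnmt3L KO over Dnmt3L_Het. Hspa14 had -0.17 and 0.0084. The general HSP70 members had medians of -0.096 and 0.073. The 14 endoplasmic reticulum stress genes had a median of 0.24 in Pld6 KO over Pld6 WT and -0.15 in Dnmt3L KO over Dnmt3L_Het. The Leydig cell markers had medians of 1.78 and -0.024, and the peritubular and vascular markers 1.69 and -0.53. With 1 library on each side, these differences were not tested.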

How the results depend on the processing

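With 1 library for each mutant, no block could be fitted for a single mutant. With both mutants as 1 group, a choice made after seeing the data, edgeR called 131 genes higher and 1058 lower with the line as a replicate block and 0 without it, where unadjusted p was under 0.05 for 128 and 1548. The log2 fold change of Hspa2 was -1.49 in both, with adjusted p = 0.0208 with the block and 0.166 without, and no other member passed in either. The direction of Hspa2, Hspa1l and Hspa4l was the same under all 5 alternatives that give a log2 change, in both mutants. Ranges in Pld6 KO and Dnmt3L KO were -1.51 to -1.11 and -1.79 to -1.39 for Hspa2. For Hspa4l they were -0.75 to -0.66 and -0.73 to -0.67. Those of Hspa1l were wide, -2.89 to -0.20 and -2.97 to -0.28, with the smallest change when Dnmt3L_Het was left out. At 3-fold, 0 members were called lower in either mutant. Without control replicates in turn, members called lower ran from 1 to 2 (Hspa1l joining without Pld6 WT) and members called higher from 0 to 2 (Hspa1a and Hspa1b, without Dnmt3L_Het), in both mutants. The testis median then ran from -1.51 to -0.72 in Pld6 KO and from -1.79 to -0.73 in Dnmt3L KO, and the general median from -0.10 to 0.15 and from 0.073 to 0.20. The general median in Pld6 KO was -0.058 with TMM-scaled fragments and -0.10 without Hspa1a and Hspa1b. By edgeR, fold changes without each control ran from -0.031 to 0.071 for Hspa4 and from -0.12 to 0.16 for Hspa8 in Dnmt3L KO and from -0.35 to 0.20 for Hspa5 in Pld6 KO, each turning sign without Pld6 WT, and leaving out a control left no residual degree of freedom for a test. Without a filter edgeR called 8 genes higher and 429 lower in Pld6 KO and 6 and 423 in Dnmt3L KO, and DESeq2 called 15 and 957, and 17 and 919, none of them a member. The cause of these differences was not tested. Depth does not limit the abundant members, whereas 1 library for each mutant limits every comparison.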
